A study of Homo sapiens with 10 samples.

Results

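A pair of drugs that act on transcription by RNA polymerase II in different ways was compared at the highest dose of each. These were 25 μg/mL DRB and 2 μg/mL α-amanitin, in A549 cells, an established line from a human lung adenocarcinoma. The members are the 4 libraries that carry these labels, 2 per drug, out of 10 in the series. The other groups are the vehicle DMSO, DRB at 10 μg/mL and α-amanitin at 1 μg/mL, with 2 libraries each. α-Amanitin was given for 24 h. How long the cells were exposed to DRB or to the vehicle is stated in none of the sources used here, so drug and time on drug cannot be told apart. All libraries were made from poly(A)+ RNA of the same line with a strand-specific kit. Labels call the libraries of a group replicates without saying that they come from separate cultures, so p-values measure only the spread between these libraries, which may be technical.

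DRB is a nucleoside analogue that inhibits kinases, above all CDK9, the catalytic subunit of P-TEFb. P-TEFb phosphorylates the paused polymerase and its negative elongation factors, and this releases the polymerase into productive elongation. α-Amanitin is a mushroom peptide that binds the largest subunit of RNA polymerase II, POLR2A, slows its movement along DNA and leads to degradation of that subunit. Because introns are removed while the polymerase moves, both drugs can alter exon choice as well as transcript levels, and short-lived mRNAs are the ones known to fall first after a transcription block.

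Reads that cross a splice junction (split reads) were counted per intron, summed per gene and scaled to a common total of split reads per library (CPM). Intron lists of the 4 libraries differed in extent. The DRB 25 libraries held 2899344 and 5175747 split reads over 45513 and 60620 listed introns, against 5418093 and 5925116 reads over 83951 and 85597 introns in the α-amanitin 2 libraries. Genes with reads numbered 5748 and 7149 under DRB 25 and 9445 and 9457 under α-amanitin 2, and between 8845 and 9747 in the other 6 libraries. The 100 highest genes took 38.4% and 38.2% of split reads under DRB 25 and 23.6% and 22.8% under α-amanitin 2, which sets the DRB 25 libraries apart from the rest. No listed intron had fewer than 11 reads of all kinds at its sites, so an unlisted intron was taken to hide up to 10 split reads, and a gene at 0 is a gene with no listed intron. Fold limits for such genes are therefore given against 10 reads per library in each intron of the gene that any of the 4 libraries lists, annotated or not. An intron dropped by other filters of the authors' pipeline could hold more, and the limits do not cover that case. The part that these differences between libraries played in the results was not tested. Of 16 markers of A549 and lung epithelium 8 had reads, among them the keratin genes KRT7, KRT8 and KRT18, VIM and ALDH1A1. Of 15 markers of other cell types only COL1A1 and CD68 had reads: 70 and 0 reads of COL1A1 under DRB 25 against 448 and 169 under α-amanitin 2, and 12 and 85 of CD68 against 0 and 0. KRT18 fell from 487 and 567 CPM under α-amanitin 2 to 101 and 220 under DRB 25 (limma voom, as below), KRT7 did not pass, and VIM rose from 1252 and 1304 to 3817 and 4087. The summed level of the 15 markers of other cell types was 36.3 and 23.9 CPM under DRB 25, 79.8 and 26.5 under α-amanitin 2, and 156 and 12.1 in DMSO.

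Splice sites of some of the exons and introns described below are shown here, so that the counts can be read beside them. Sequences were read from GRCh37 on the strand of the gene, 5′ to 3′, with exonic bases in capitals and intronic bases in lower case. The first are the borders of an internal exon of SRSF3, a gene for a small SR splicing factor, at chr6:36567598-36568053 on the plus strand. This exon is known to carry an early stop codon. The second are the borders of an internal coding exon of SNRPA1, a protein of the U2 small nuclear ribonucleoprotein, at chr15:101826419-101826498 on the minus strand.
SRSF3 exon, acceptor: aaaaatgaaccccgttacagAGTCA
SRSF3 exon, donor: AAACTAgtaagtttttcctg
SNRPA1 exon, acceptor: tgtgtgtggtgtcgctgtagGAGCG
SNRPA1 exon, donor: CAAAACgtaagacacggata

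For unspliced RNA, an intron of POLR2B, the second largest polymerase subunit, and one of HNRNPH1, an RNA-binding splicing regulator, stand for the opposite directions. The POLR2B intron lies at chr4:57889747-57889827 on the plus strand and the HNRNPH1 intron at chr5:179048978-179050037 on the minus strand.
POLR2B intron, donor: ATAAGGgtgagtacaacttt
POLR2B intron, acceptor: ttatttttatatgaatttagGTACG
HNRNPH1 intron, donor: TTTCTGgtgagttagaacta
HNRNPH1 intron, acceptor: gacttactatctgaatttagCGTTG

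For introns absent from the annotation, those of EGFR, the epidermal growth factor receptor, and of GJA1, a gap junction protein, took large shares of their genes' split reads under DRB 25. The SEC14L1 intron is shown as the one with the largest difference in the other direction. They lie at chr7:55087059-55087375, chr6:121768421-121768695 and chr17:75212018-75212105, all on the plus strand.
EGFR intron, donor: AGAAAGgtaagggcgtgtct
EGFR intron, acceptor: ccctcactttccccgcccagCTGCG
GJA1 intron, donor: AGCATGgtaaggtgaaaatg
GJA1 intron, acceptor: tcttctatgttttcttcaagGGCGT
SEC14L1 intron, donor: TCGTAGgtagggttcgtagg
SEC14L1 intron, acceptor: ttcgtaggtagggttcgtagGTAGG

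The first comparison asked which genes differed in level between the drugs. Under DRB 25, genes of the immediate early response, ribosomal proteins, respiratory chain subunits and snoRNA hosts stood mostly above their levels under α-amanitin 2, and genes of mitosis and DNA replication stood mostly below. Of 9169 genes tested with limma voom over all 10 libraries, 1982 (21.6%) were higher under DRB 25 and 4309 (47.0%) lower at a Benjamini-Hochberg adjusted p under 0.05. In 7748 genes (84.5%) the CPM of the 2 drugs did not overlap. The median log2 difference over all genes was -1.06, and scaling to total split reads in place of the trimmed mean of M-values (TMM) shifted it by a further -0.53. Of the lower genes, 1974 had no listed intron in either DRB 25 library, and of the higher genes 164 had none in either α-amanitin 2 library. A gene was tested with at least 10 reads in at least 2 of the 4 libraries. Genes at 0 under 1 drug could thus enter only through the other drug and differ only towards it. The gene counts in the 2 directions depend on that filter. With unlisted introns at 10 reads, 1708 of the higher genes (18.6% of those tested) and 917 of the lower ones (10.0%) kept their direction and call. Over introns listed in all 4 libraries, 4994 genes could be tested, with 1405 (28.1%) higher and 1375 (27.5%) lower and a median log2 difference of 0.01. Without DRB 25 replicate 1 the calls were 1962 and 1698, and without replicate 2 they were 1557 and 1271.

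The genes for the main targets of the drugs were each higher under the drug that acts on them than under the other drug or DMSO. POLR2A (chr17:7387685-7417933), the largest polymerase subunit and the target of α-amanitin, had 190 and 116 CPM under DRB 25, 695 and 496 under α-amanitin 2, and 181 and 138 in DMSO. The α-amanitin 2 libraries were thus the high ones and overlapped neither DRB 25 nor DMSO. The log2 difference was -2.04 (SE 0.29, adjusted p = 0.0004687, limma voom) over all introns and -1.97 over common introns. CDK9 (chr9:130547958-130553071), the kinase in P-TEFb, had 137 and 144 CPM under DRB 25 and 49.5 and 46.4 under α-amanitin 2. DMSO, at 37.5 and 42.2 CPM, lay beside α-amanitin 2. The log2 difference was 1.56 (SE 0.16, limma voom adjusted p = 9.05e-05) over all introns and 1.30 over common introns. GAPDH and ACTB, reference genes chosen after the fact, rose by 1.52 and 1.56 over all introns, so the rise of CDK9 was no larger than theirs. Whether it is particular to CDK9 was not tested. HEXIM1, the P-TEFb inhibitor, has no intron and was not measurable in split reads.

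Against 21.6% higher and 47.0% lower over all genes, 4 of the 12 polymerase II subunits rose and 5 fell. Of 15 genes of P-TEFb, its 7SK partners, CDK12 and the super elongation complex, 7 rose and 6 fell. The list of NELF, DSIF and other elongation factors had 4 up and 10 down of 18, and that of polymerase I and III subunits 3 up and 9 down of 18. CCNT1, the cyclin partner of CDK9, rose by 1.09 on the log2 scale (78.3 and 115 CPM under DRB 25, 43.3 and 49.0 under α-amanitin 2) and was picked after its values were seen. LARP7, which stabilises 7SK RNA, and CDK12, a kinase of elongating polymerase, were listed at 0 in both DRB 25 libraries, against 38.5 and 43.2 CPM for LARP7 and 26.7 and 37.6 for CDK12. These 2 genes did not stay lower at 10 reads per unlisted intron, where the sign of their difference turned. In the Integrator complex, which cleaves nascent RNA, 10 of 13 members were called lower and 1 higher, but only 1 of the 10 held at that limit, and the median of -5.50 became 0.48 over common introns, which only 3 of the genes had. INTS13 and INTS8 were both among those that did not hold. The same was true of POLR2D, a polymerase II subunit, LEO1, of the PAF complex, and POLR3E, of polymerase III. IWS1, an elongation factor, held, at 5.75 and 0 CPM against 62.7 and 81.6.

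Immediate early and short-lived transcripts showed the highest median of the 27 lists. Of 29 tested, 22 were higher under DRB 25 and 4 lower, against 21.6% and 47.0% of all genes. Of the 22, 21 held with unlisted introns at 10 reads. Their median log2 difference was 2.91, against -1.06 for all genes, and 2.65 over common introns. FOS and EGR1, transcription factors of this class, had no listed intron under α-amanitin 2 and 66 and 114 reads (FOS) and 68 and 111 reads (EGR1) under DRB 25. Against 10 reads per intron, FOS was at least 6.11-fold and EGR1 at least 9.17-fold higher. FOS lost its call without DRB 25 replicate 1, DRB 25 replicate 2 or α-amanitin 2 replicate 2 (limma voom adjusted p of 0.0605, 0.079 and 0.0541), and EGR1 without DRB 25 replicate 2 (0.0529). The following were chosen after their values were seen. MYC, the growth-promoting transcription factor, had 384 and 390 CPM under DRB 25 against 10.9 and 14.3 under α-amanitin 2 and 26.9 and 26.8 in DMSO. KLF6, a zinc finger factor, had 510 and 289 CPM against 9.08 and 8.46. The log2 difference was 4.94 (SE 0.23) for MYC and 5.40 (SE 0.53) for KLF6, with limma voom adjusted p of 3.46e-06 and 7.71e-05, and the DRB 25 values of both genes lay above those of α-amanitin 2 and DMSO.

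Stress and survival genes were split, where 21.6% of all genes were higher and 47.0% lower. In the p53 target list 13 of 29 rose and 4 fell, with a median of 0.52. CDKN1A, the cyclin-dependent kinase inhibitor p21, chosen after the fact, had 223 and 342 CPM under DRB 25, 49.0 and 42.4 under α-amanitin 2, and 9.21 and 13.3 in DMSO, so both drugs stood above the vehicle. POLH, the bypass DNA polymerase eta, went the other way, with no listed intron under DRB 25 and 514 and 445 reads under α-amanitin 2, but it did not hold at 10 reads per unlisted intron (limma voom adjusted p = 0.07177). FAS, the death receptor, was called lower too, and its difference turned positive at 10 reads per unlisted intron. Of 11 BCL2 family genes 4 rose and 4 fell. BBC3, which encodes the death-promoting protein PUMA, rose from 2.49 and 2.19 CPM under α-amanitin 2 to 39.8 and 40.8 under DRB 25, a log2 difference of 4.07 (SE 0.61, adjusted p = 0.0005862, limma voom). MCL1, a short-lived survival protein (chosen after the fact), rose by 2.41 over all introns and 1.43 over common introns. BOK, a death-promoting member, was called lower, at 22.8 and 22.1 CPM against no listed intron, and its difference turned positive at the limit. In the list of NRF2 targets, the oxidative stress response, 17 of 28 rose and 8 fell. HMOX1, heme oxygenase 1 (chosen after the fact), had 1700 and 2020 CPM under DRB 25, 25.1 and 47.6 under α-amanitin 2 and 139 and 135 in DMSO, a log2 difference of 5.72 (SE 0.27, limma voom adjusted p = 3.46e-06). GCLC, for glutathione synthesis, had no listed intron under DRB 25 and at least 1.57-fold fewer reads. AKR1C1 was called lower as well, without holding at that limit. POLH, BOK and GCLC lost their calls without DRB 25 replicate 1 (limma voom adjusted p from 0.0563 to 0.0697) and without replicate 2 (0.0908 to 0.106).

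PPP1R15A, which recruits the phosphatase that ends the integrated stress response, rose from 5.70 and 6.26 CPM under α-amanitin 2 to 97.3 and 64.8 under DRB 25 (log2 difference 3.64, SE 0.42). Its list, the ATF4 targets, had 5 up and 5 down of 16, against 21.6% and 47.0% of all genes. CEBPG, another member, was called lower and did not hold at the limit. Endoplasmic reticulum chaperones had 7 up and 6 down of 19, and HERPUD1 and DNAJC3 of that list were lower only as long as unlisted introns were taken as empty. Heat shock proteins and chaperonins had 3 up and 11 down of 21, all 11 held at 10 reads per unlisted intron, and the median was -0.75 over all introns and -1.03 over common ones. HSPA8, the constitutive HSP70, had 170 and 196 CPM under DRB 25, 604 and 987 under α-amanitin 2 and 1389 and 2162 in DMSO. Both drugs were thus below the vehicle, with DRB 25 the lower, at a log2 difference of -2.07 (SE 0.42). DNAJA1, its co-chaperone, fell by 2.33 on the log2 scale. The proteasome list had 11 up and 8 down of 32: PSMD7, a lid subunit, rose from 178 and 170 CPM to 547 and 530, and PSMC6, a base ATPase, fell from 256 and 323 to 42.0 and 37.2.

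Ribosomal protein genes took a larger part of the split reads under DRB 25. Beside the lists that follow, 21.6% of all genes were higher and 47.0% lower. Of 85 ribosomal protein genes 80 rose, 2 fell and 3 did not pass, all 80 held at the limit, and the median was 1.42 over all introns and 1.18 over common introns. Together the ribosomal protein genes took 22.1% and 23.9% of split reads under DRB 25, 12.9% and 12.3% under α-amanitin 2 and 12.5% and 13.0% in DMSO. RPL22L1, a paralogue of RPL22, rose from 8.37 and 17.7 CPM to 55.3 and 92.4, a log2 difference of 2.61 (SE 0.42). RPL39L, a paralogue of RPL39, was the other named member, with no listed intron under DRB 25 and a fall that did not hold at the limit. Of 75 nuclear-encoded subunits of oxidative phosphorylation 51 rose and 12 fell, with a median of 0.80. NDUFV3, of respiratory complex I, was called lower without holding at the limit. SDHA, the flavoprotein of respiratory complex II, was among those that fell, from 406 and 352 CPM to 11.5 and 60.0 (log2 difference -3.64, SE 0.47, and -2.47 over common introns). GAPDH and ACTB, chosen after the fact as common reference genes, rose by 1.52 (SE 0.10) and 1.56 (SE 0.09), which is the size of the ribosomal median. Of 19 snoRNA host genes 12 rose and none fell in limma voom, with a median of 1.10. SNHG6 of that list had 285 and 287 CPM under DRB 25 and 76.4 and 72.3 under α-amanitin 2. DANCR, another host, had 14.6 and 16.1 CPM against 0 and 5.32, and lost its call without DRB 25 replicate 2 (limma voom adjusted p = 0.0667).

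**Figure D1:**
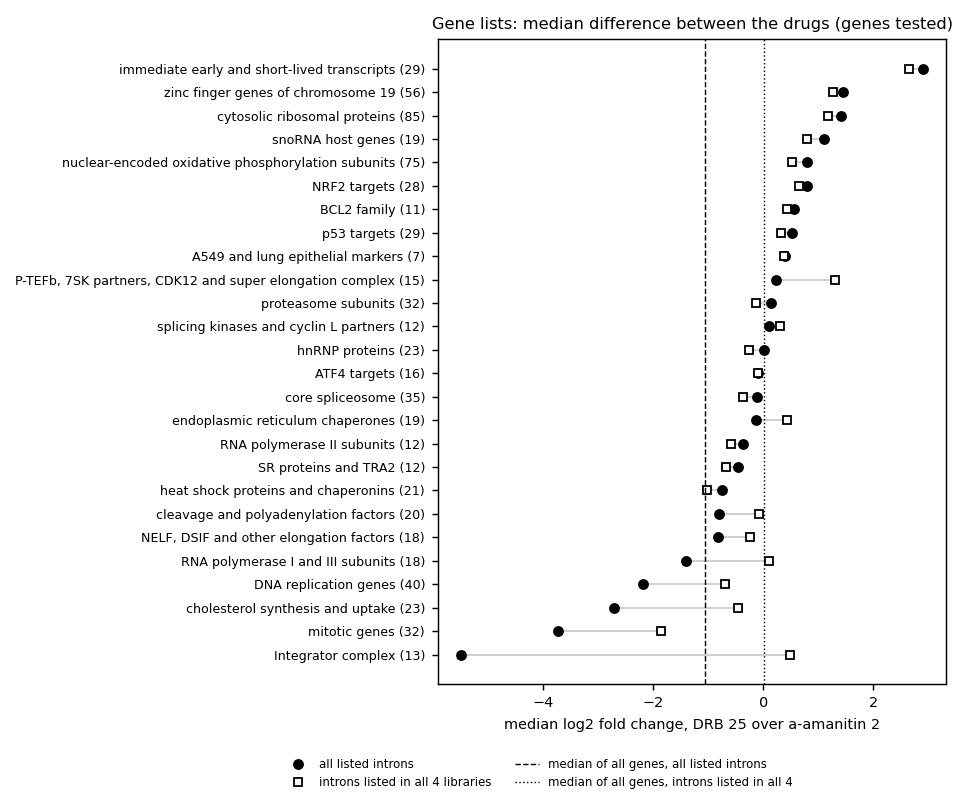
Median log2 difference of DRB 25 over α-amanitin 2 in each gene list, with the number of genes tested in parentheses. Filled circles use all listed introns, open squares only introns listed in all 4 libraries, and vertical lines give the medians of all genes on these 2 scales, at -1.06 and 0.01. Immediate early transcripts lie farthest right on both, mitotic genes lie left on both, and the Integrator complex lies far left on the first scale, over 13 genes, but not on the second, which rests on 3.

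Cell division genes were low under DRB 25. Of 32 mitotic genes 30 fell and 1 rose, against 47.0% and 21.6% of all genes, and 24 of the 30 held with unlisted introns at 10 reads. The median was -3.74, and -1.86 over common introns, against -1.06 and 0.01 for all genes. KIF11, the mitotic kinesin Eg5, had no listed intron under DRB 25 and 930 and 1193 reads under α-amanitin 2, and was at least 2.21-fold lower. CCNB2, a cyclin of mitotic entry, had no listed intron against 827 and 983 reads and was at least 5.20-fold lower. TOP2A, the topoisomerase of dividing cells, was chosen after the fact because it had reads throughout: 78.8 and 160 CPM under DRB 25, 515 and 657 under α-amanitin 2, and 1303 and 1474 in DMSO, with no overlap and a log2 difference of -2.27 (SE 0.28). Of 40 DNA replication genes 28 fell, 16 of them also at the limit, and 5 rose. POLA2, a subunit of DNA polymerase alpha, was at least 1.46-fold lower. RFC1, of the clamp loader, had no listed intron under DRB 25 either and did not hold. Cholesterol synthesis and uptake had 15 of 23 down and 1 up. Only 5 of the 15 held, and IDI1, an isomerase of the pathway, was one of them at no less than 2.15-fold lower, while MVK, mevalonate kinase, did not hold. IDI1 lost its call without DRB 25 replicate 2 (limma voom adjusted p = 0.0724).

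The 12 largest falls among genes with a mean of at least 50 split reads all had no listed intron under DRB 25. They entered the test only through α-amanitin 2 reads, so their direction was set by the filter. NASP, a histone chaperone, had 1749 and 2006 reads under α-amanitin 2 and was at least 4.11-fold lower. ATAD2, SMC3 and PDS5A, of chromatin and cohesin, were at least 2.41, 2.26 and 1.53-fold lower, and MCMBP, CLSPN and NCAPG, of replication, its checkpoint and condensin, at least 2.62, 1.39 and 1.96-fold. USP24, USP9X and KNTC1 did not hold at 10 reads per unlisted intron. Of the genes named in this paragraph, NASP, PDS5A, NCAPG, USP24, USP9X and KNTC1 lost their call without DRB 25 replicate 2, with adjusted p from 0.0551 to 0.236, and the last 3 also without replicate 1.

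The 12 largest rises were genes with no listed intron in either α-amanitin 2 library. They entered the test only through DRB 25 reads, so their direction was set by the filter. NAV3, a microtubule-binding navigator protein, had 1545 and 1964 reads under DRB 25, 40 and 47 under DRB 10, 0 and 40 under α-amanitin 1 and 0 and 13 in DMSO, and was at least 5.96-fold higher than under α-amanitin 2. RUNX1, a transcription factor of blood cell development, had 367 and 449 reads under DRB 25 and 15 and 46 under DRB 10, and was no less than 6.64-fold higher. PLB1 and ABCA4, a phospholipase and a lipid transporter, NOTCH3, a receptor, and LINC-PINT, a long noncoding RNA, had none in DMSO and were at least 2.21, 1.88, 3.23 and 3.15-fold higher. BST1, CRTAM and BTK are best known from leukocytes. They had 321 and 363, 261 and 263, and 244 and 272 reads under DRB 25, none in the DMSO libraries, and limits of 3.84, 5.15 and 2.76-fold. NECTIN4, VIT and SDCBP2 completed the set with limits of 6.30, 2.18 and 3.87-fold. All 12 genes had reads in both DRB 25 libraries and in neither α-amanitin 2 library. Zinc finger genes of chromosome 19 also leaned this way, with 24 up and 7 down of 56 tested, against 21.6% and 47.0% of all genes. Their median was 1.45, and ZNF699 was at least 3.15-fold higher. ZNF850 was called higher, at 57 and 97 reads against none, and did not hold at the limit (limma voom adjusted p = 0.07109). Of the 24, 11 held at 10 reads per unlisted intron.

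Genes of the splicing machinery differed without a common direction. Over all genes 21.6% were higher and 47.0% lower. SR proteins had 1 up and 6 down of 12, hnRNP proteins 9 up and 7 down of 23, splicing kinases 4 up and 3 down of 12, core spliceosome genes 12 up and 14 down of 35, and cleavage and polyadenylation factors 5 up and 12 down of 20. SRSF6 had 7.52 and 19.1 CPM under DRB 25, 137 and 146 under α-amanitin 2, and 149 and 195 in DMSO, a log2 difference of -3.40 (SE 0.42, adjusted p = 0.0002394, limma voom). SRSF7 fell from 341 and 392 CPM to 81.9 and 91.5. HNRNPL rose from 297 and 370 CPM to 969 and 1015, above its 728 and 696 CPM in DMSO. CDC5L, of the complex that joins at spliceosome activation, had 0 and 12.7 CPM under DRB 25 against 123 and 154, and lost its call without DRB 25 replicate 2 (limma voom adjusted p = 0.0611). CPSF3, the endonuclease that cuts pre-mRNA at the poly(A) site, had 0 and 5.07 CPM against 178 and 162 and was at least 2.62-fold lower. HNRNPLL, CLK4, SRPK2 and WDR33 were called lower and did not hold at 10 reads per unlisted intron.

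Calls also differed with gene level, size and class. Among 4 equal groups by DMSO CPM, the median log2 difference was -3.33 in the lowest, up to 9.79 CPM, and -0.09 in the highest, from 91.9 CPM. Of the lower genes, 0 of 951 held at 10 reads per unlisted intron in the lowest group and 606 of 891 in the highest. Lists whose genes differ in level are thus not alike in how many genes could hold. With the tested genes cut into 4 equal groups by span, in the group with the shortest span, up to 14.1 kb, 31.1% were higher and 35.0% lower under DRB 25, and in the group with the longest, from 72.9 kb, 15.8% were higher and 54.2% lower. Over common introns the medians of the 4 groups were 0.21, -0.06, -0.15 and 0.04, and 530 of 1450 genes in the first and 261 of 989 in the last were higher, with 334 and 232 lower. Of 224 lncRNA genes 72 were higher and 66 lower, against 1894 and 4174 of 8766 coding genes. At 10 reads per unlisted intron 47 of the 72 and none of the 66 lncRNA genes held in limma voom, and 1651 and 912 of the coding genes. In 440 genes over 100 kb, the introns before the midpoint of the gene held a median of 10.8% and 11.5% of its common-intron split reads under DRB 25, 10.1% and 10.8% under α-amanitin 2 and 10.3% and 10.6% in DMSO. The libraries of each group spread about as far as the groups lay apart. As for the vehicle, DMSO lay nearer to α-amanitin 2 than to DRB 25 in 92.0% of the higher genes, in 90.0% of the lower genes and in 82.5% of all those tested. DRB 10 lay between DMSO and DRB 25 in 63.9% of the 917 lower and 46.1% of the 1708 higher genes that held at the limit, against 47.0% of all lower, 46.4% of all higher and 41.4% of all tested genes.

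The next comparison asked which exons were included differently. Inclusion was measured as Psi, the inclusion reads divided by inclusion reads plus 2 times the reads that skip the exon, and tested by a quasi-binomial F test with Benjamini-Hochberg adjustment. Of 10793 exons tested, 4145 (38.4%) had lower and 576 (5.34%) higher inclusion under DRB 25 than under α-amanitin 2, and 6072 did not pass. The median Psi of the lower exons was 0.594 under DRB 25, 1 under α-amanitin 2 and 1 in DMSO, and that of the higher exons was 0.356, 0.0478 and 0.0258. DMSO lay nearer to α-amanitin 2 in 97.5% of the lower and 85.2% of the higher exons. In 2559 of the lower exons no skipping read was listed under α-amanitin 2. An exon was tested only with at least 10 inclusion and 10 skipping reads over the 4 libraries. These 2559 could thus enter only through skipping reads under DRB 25, and the counts in the 2 directions are not free of that filter. Where both kinds of read were listed in all 4 libraries, 669 of 3736 exons (17.9%) were lower and 200 (5.35%) higher. By position, 2239 of 5692 internal exons were lower and 264 higher, 578 and 117 of 1818 first exons, and 1058 and 128 of 2433 last exons. A first or last exon has inclusion reads on one side only, and its change is one of start or end choice as much as of skipping. Coding exons made up 64.6% of the lower, 43.9% of the higher and 57.7% of all tested exons, and 36.5%, 33.0% and 37.7% had lengths divisible by 3. Counts rested on all libraries: without DRB 25 replicate 1, DRB 25 replicate 2 or α-amanitin 2 replicate 2, the exons called were 1465, 1560 and 3078 in place of 4721.

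**Figure D2:**
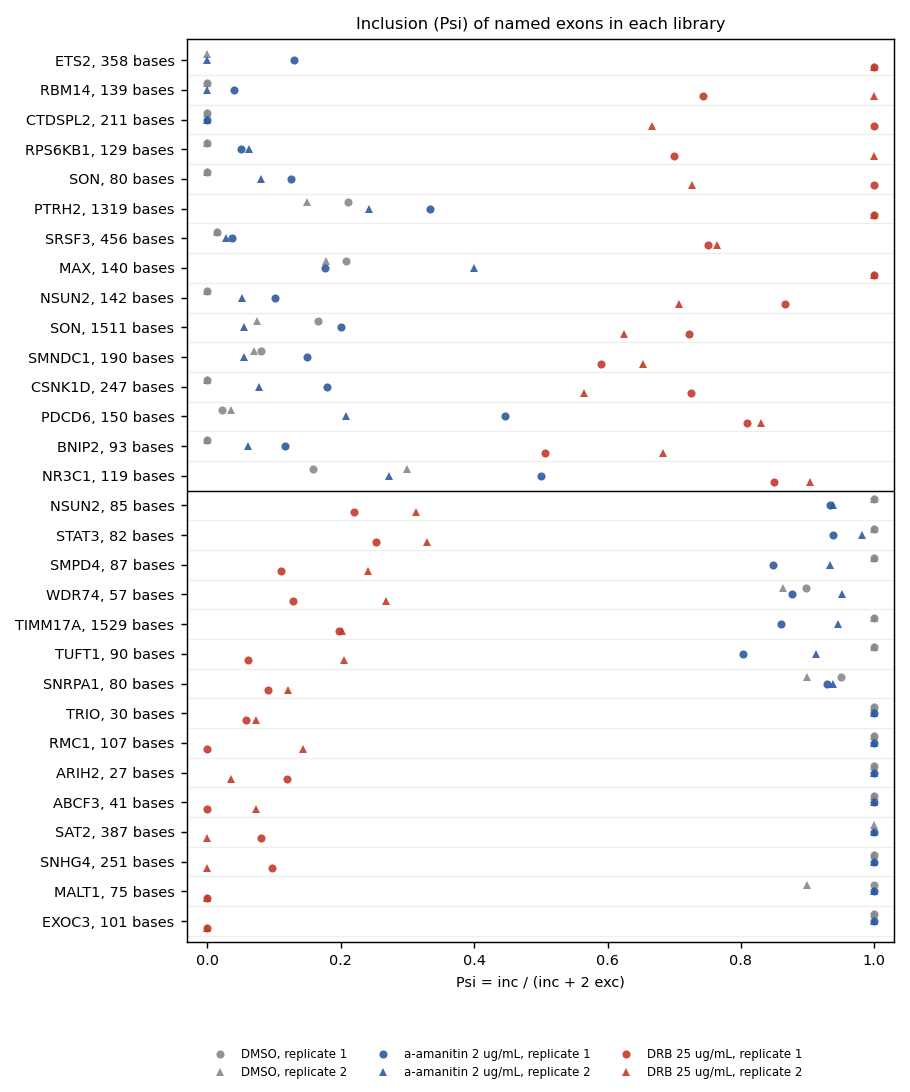
Psi of 30 exons in each library, from 0 (no inclusion read listed) to 1 (no skipping read listed), with exon lengths beside the gene names. The upper block holds exons with higher inclusion under DRB 25 and the lower block those with lower inclusion. In every exon the 2 DRB 25 points lie apart from the 2 α-amanitin 2 points, and DMSO lies on the α-amanitin side.

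SRSF3 gave the clearest gain. Its 456-base exon, whose borders are shown above, had 54 inclusion and 9 skipping reads and 104 and 16 in the DRB 25 libraries, against 19 and 243 and 25 and 421 under α-amanitin 2 and 15 and 491 and 21 and 735 in DMSO. Psi was 0.760 under DRB 25 and 0.0321 under α-amanitin 2 (adjusted p = 1.73e-10, quasi-binomial F test), with no overlap. A 1061-base last exon annotated from the same acceptor, chr6:36567598-36568658, had a Psi of 0.6575 against 0.0214. Its inclusion reads, 35 and 61 under DRB 25, lie at that shared acceptor and cannot be assigned to either exon alone. The last coding exon of the same gene, chr6:36569739-36573377, fell in turn to a Psi of 0.347 from 1. As a gene SRSF3 fell by 1.48 on the log2 scale (SE 0.25).

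SNRPA1 lost internal exons. For the 80-base exon shown above, the DRB 25 libraries had 4 inclusion and 20 skipping reads and 13 and 47, and the α-amanitin 2 libraries 184 and 7 and 214 and 7, so that Psi was 0.113 against 0.934 (adjusted p = 3.23e-08, quasi-binomial F test). Internal exons of 148 and 79 bases in the same gene had Psi of 0.126 against 0.862 and 0.163 against 0.871. DMSO stood with α-amanitin 2 throughout, for instance at 153 and 4 and 195 and 11 reads for the first of these exons.

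Further exons with both kinds of read in all 4 libraries fell under DRB 25 in TUFT1 (Psi 0.146 against 0.861), TIMM17A (a noncoding first exon, 0.200 against 0.905), WDR74 (0.218 against 0.908) and SMPD4 (0.207 against 0.893). STAT3, a transcription factor of cytokine signalling, was one of the deepest in reads: its 82-base coding exon had 65 and 96 and 98 and 100 reads under DRB 25, 241 and 8 and 325 and 3 under α-amanitin 2, and only inclusion reads in DMSO, with a Psi of 0.294 against 0.963. NSUN2, an RNA methyltransferase, changed at neighbouring exons in opposite directions. A 142-base noncoding exon rose to 0.767 from 0.0748, and an 85-base coding exon fell to 0.276 from 0.936. Rises of this kind were also seen in SMNDC1, a spliceosome assembly factor (0.625 against 0.0947), CSNK1D, a casein kinase (0.635 against 0.122), BNIP2 (0.588 against 0.0833), PDCD6 (0.824 against 0.313) and a 1511-base last exon of SON (0.676 against 0.130). NR3C1, the glucocorticoid receptor, had a first exon at 0.882 against 0.391 that passed only among the exons with both kinds of read and not over all exons (quasi-binomial F test, adjusted p = 0.0647 in the fit across all exons).

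The largest shifts in Psi were switches between all and nothing among listed reads, on fewer reads. Junctions left off the lists can hide reads, so a Psi of 0 or 1 need not be complete. MALT1, a protease of immune signalling, had a 75-base coding exon with 0 inclusion and 8 skipping reads and 0 and 13 under DRB 25, against 35 and 48 inclusion reads with no skipping under α-amanitin 2. EXOC3, of the exocyst, had a 101-base coding exon with 24 and 31 skipping reads only under DRB 25 and 29 and 57 inclusion reads only under α-amanitin 2. An internal coding exon of RMC1 fell from 1 to 0.0638. Last exons of SNHG4, ARIH2 and ABCF3 and first exons of SAT2 and TRIO, all noncoding, fell from 1 to between 0.0303 and 0.0654. In the opposite direction, a 358-base 5′ UTR exon of the transcription factor gene ETS2 had 18 and 22 inclusion reads and no skipping read under DRB 25 against 3 and 10 and 0 and 13 under α-amanitin 2. RBM14 (a noncoding last exon), CTDSPL2, RPS6KB1, SON (an 80-base exon) and MAX (a noncoding first exon) rose to Psi between 0.795 and 1 from between 0 and 0.275. The exon of PTRH2 (1 against 0.265) lost its call in the quasi-binomial fit without DRB 25 replicate 2 (limma-moderated, adjusted p = 0.0514) or α-amanitin 2 replicate 2 (0.0772).

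Splicing factor genes were themselves affected. Exons of SR protein genes numbered 52, of which 9 rose and 23 fell. Of 195 hnRNP exons 17 rose and 98 fell, of 76 exons of splicing kinases 7 and 62, and of 74 core spliceosome exons 6 and 41, beside the 5.34% and 38.4% of all exons. The exons came from 10 SR, 21 hnRNP, 6 splicing kinase and 19 core spliceosome genes. Exons of a gene can share splice sites and reads, so these counts are not of independent events. HNRNPF had a first exon with 65 and 79 inclusion reads and no skipping reads under DRB 25, against 22 and 29 and 24 and 31 under α-amanitin 2, and DMSO, at 7 and 28 and 13 and 37, had the lowest share. That exon is annotated in 2 lengths that share these reads. CDK11A and CCNL1, a kinase and its cyclin partner that act in splicing, had last exons at Psi 0.200 against 0.826 and 0.194 against 0.818.

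Unspliced reads, which run from exon into intron, were then compared. Over annotated nuclear introns they made up 4.12% and 3.88% of reads at splice sites under DRB 25, 2.62% and 2.25% under α-amanitin 2, and 2.44% and 2.38% in DMSO. The groups did not overlap and differed by 1.56 percentage points, with an exact permutation p of 0.33, the smallest that 2 against 2 libraries allow. Over introns listed in all 4 libraries the shares were closer, at 2.56% and 2.19% against 1.99% and 1.81%, a difference of 0.477 points. Of 6319 introns tested one by one, 506 (8.01%) had a higher and 212 (3.35%) a lower unspliced share under DRB 25. An intron was tested only with at least 10 unspliced reads over the 4 libraries. One without unspliced reads under 1 drug could therefore differ only towards the other drug, and these 2 counts depend on that filter. Introns with a higher share were longer, with a median of 1111 bases against 674 in all tested and 594 in those with a lower share, and poorer in G and C, at 48.9%, 51.4% and 54.5%. GTAAGT or GTGAGT opened 31.0% of the higher, 28.3% of the lower and 25.5% of all tested introns, on the strand of the gene and at the first intronic base. Single libraries weighed on the count of 718 and on the direction. The median difference over the tested introns, as a fraction, was 0.0030 with all libraries. It was -0.00076 without DRB 25 replicate 1 and 0.0056 without DRB 25 replicate 2. Without α-amanitin 2 replicate 1 it was 0.0047, and without α-amanitin 2 replicate 2 it was 0.0022. By retention against inclusion reads of exons, 59 of 16223 exons were higher under DRB 25 and 56 lower, without a lean to either drug.

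**Figure D3:**
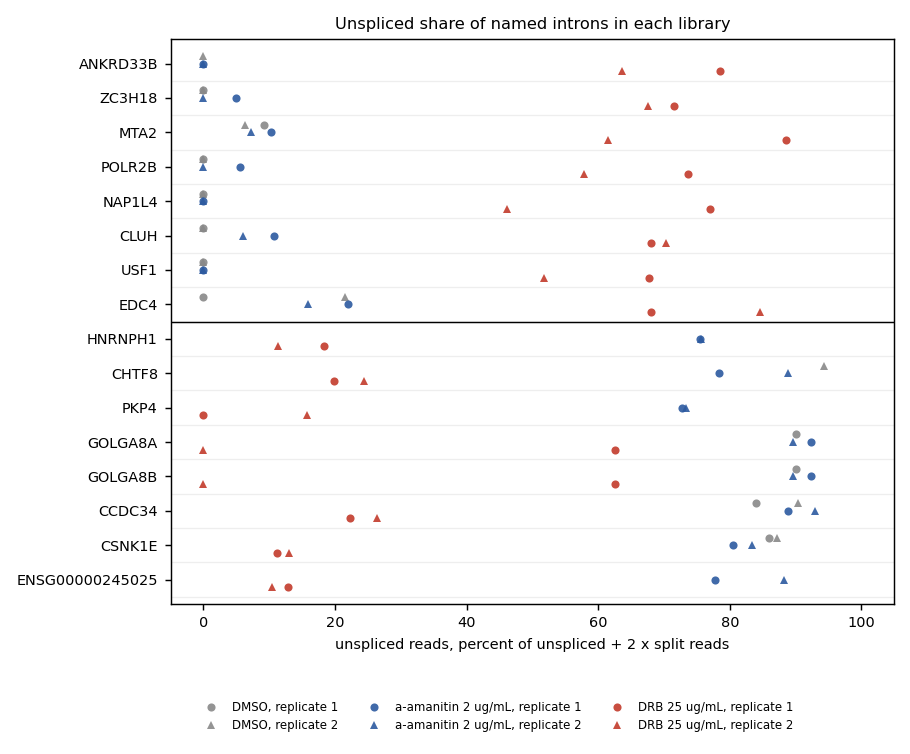
Unspliced share of 16 introns in each library, in percent of unspliced reads plus 2 times split reads. The upper block holds introns with a higher share under DRB 25 and the lower block those with a lower share. DRB 25 points lie on one side of both α-amanitin 2 points in each intron, and for GOLGA8A and GOLGA8B, which share reads, the DRB 25 replicates lie far apart, at 62.5% and 0%.

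POLR2B retained the 81-base intron shown above in more of its RNA under DRB 25. Unspliced reads numbered 28 and 33 beside 5 and 12 split reads, against 8 and 0 beside 69 and 81 under α-amanitin 2, and none beside 54 and 68 in DMSO. The unspliced share was 64.2% against 2.60% (adjusted p = 0.0002057, quasi-binomial F test). MTA2, of a chromatin remodelling complex, had 46 and 64 unspliced beside 3 and 20 split reads, against 21 and 15 beside 92 and 97, and CLUH, which binds mRNAs for mitochondrial proteins, 51 and 85 beside 12 and 18 against 10 and 4 beside 42 and 31. In these 3 introns reads ran across both the donor and the acceptor site. An intron of ZC3H18, an RNA-binding nuclear protein, was at 69.4% against 2.07%. ANKRD33B, NAP1L4, USF1 and EDC4 were at 69.4%, 61.5%, 60.0% and 75.3% against 0%, 0%, 0% and 18.4%, and lost their calls without α-amanitin 2 replicate 2 (adjusted p 0.0535, 0.0961, 0.0741 and 0.102). In ANKRD33B all unspliced reads lay at the acceptor site.

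HNRNPH1 moved the other way. Its intron had 44 and 33 unspliced beside 98 and 129 split reads under DRB 25 and 296 and 161 beside 48 and 26 under α-amanitin 2, 14.5% against 75.5% (adjusted p = 9.37e-07, quasi-binomial F test). This intron was not listed in DMSO. CHTF8, a cofactor of sister chromatid cohesion, had 36 and 58 beside 73 and 90 against 159 and 207 beside 22 and 13, and CSNK1E, a casein kinase, 3 and 3 beside 12 and 10 against 66 and 80 beside 8 and 8. In CSNK1E, DMSO (61 and 41 unspliced beside 5 and 3 split reads) was with α-amanitin 2. A gene listed only by its identifier, ENSG00000245025, had an intron at 11.4% against 82.9%. CCDC34, PKP4, GOLGA8A and GOLGA8B fell too, to between 11.4% and 27.8% from between 73.1% and 91.3%, and each lost its call without α-amanitin 2 replicate 2 (adjusted p from 0.0961 to 0.141). GOLGA8A and GOLGA8B are near-identical copies with the same reads, so their values are uncertain and count as 1.

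The last comparison concerned introns that the annotation (GENCODE release 44 mapped to GRCh37) does not hold. They took 2.16% and 1.69% of split reads under DRB 25, 0.645% and 0.563% under α-amanitin 2 and 0.539% and 0.544% in DMSO, with no overlap and a difference of 1.32 percentage points (exact permutation p = 0.33). With introns listed in all 4 libraries only, the difference was 0.262 points. The DRB 25 libraries listed 10414 such introns and the α-amanitin 2 libraries 4601, with 1728 in common, which is a share of each list that differs because the lists differ in length. In both DRB 25 libraries and neither α-amanitin 2 library there were 2986, of which 2933 were not in DMSO either, and 593 in both α-amanitin 2 and neither DRB 25 library. New pairings of annotated donors and acceptors took 0.669% and 0.419% of split reads under DRB 25 against 0.108% and 0.0861%, introns with 1 annotated site 0.664% and 0.539% against 0.189% and 0.148%, and introns with none 0.829% and 0.732% against 0.351% and 0.330%.

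**Figure D4:**
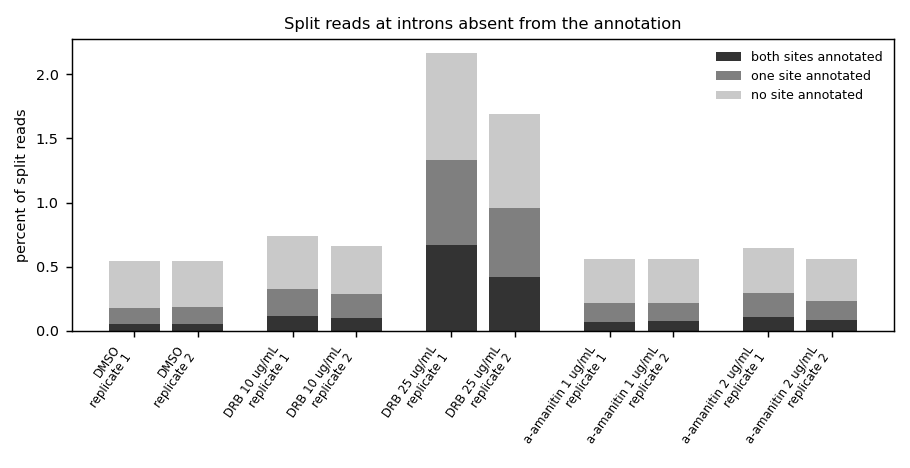
Split reads at introns absent from the annotation, in percent of all split reads, for each of the 10 libraries, with the bars divided by how many of the intron's sites are annotated. The DRB 25 bars reach 2.16% and 1.69%, and those of the α-amanitin 2 libraries 0.647% and 0.564%, with chromosome M included.

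As a share of their gene's split reads, 323 of 3158 introns tested (10.2%) were higher under DRB 25 and 5 (0.158%) lower. An intron was tested with at least 10 split reads over the 4 libraries. One listed under a single drug could therefore differ only towards that drug, and DRB 25 listed more of them. The counts in the 2 directions are not free of that filter. By class, 165 of 1241 introns with both sites annotated rose, 131 of 1415 with 1 and 27 of 502 with none. The canonical GT and AG ends were present in 97.5% of the higher introns and 91.2% of all tested, and their median lengths were 2999 and 2346 bases. These calls were the least stable of the 4 comparisons: leaving out single libraries left 26 (DRB 25 replicate 1), 51 (DRB 25 replicate 2), 32 (α-amanitin 2 replicate 1) and 8 (α-amanitin 2 replicate 2) of 328. Taking the reads of introns that share a splice site as the denominator, in place of the whole gene, gave 1253 higher and 18 lower.

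EGFR held the largest shift. The 317-base intron whose borders are shown above, near the start of the gene, had 60 and 123 split reads under DRB 25 and none in the α-amanitin 2 or DMSO libraries, and it made up 56.0% of the gene's split reads under DRB 25 (adjusted p = 0.003944, quasi-binomial F test). As a gene EGFR did not pass, at 33.6 and 70.7 CPM under DRB 25 and 71.4 and 103 under α-amanitin 2 (log2 difference -0.70, SE 0.37, limma voom adjusted p = 0.1185). That gene total includes the intron itself, which held 60 of 76 and 123 of 251 split reads under DRB 25. The level of EGFR without this intron was not tested. GJA1 had 23 and 24 reads of its 275-base intron, both of whose sites are unannotated, and none under α-amanitin 2, 32.2% of the gene's split reads. RPL36AL, a ribosomal protein paralogue, had 51 and 97 reads against 17 and 7, or 49.5% against 10.8%. ORC2, of the origin recognition complex, BOD1, SAT2, UTP18 and WNT7B had introns at 43.1%, 40.7%, 35.7%, 31.7% and 29.4% against 0%, on between 6 and 20 reads per library. Their genes had only 22 and 29, 13 and 41, 23 and 33, 27 and 14, and 43 and 66 split reads in the DRB 25 libraries. UTP18 had 280 and 582 under α-amanitin 2. Gene totals count listed introns only, so each of these shares can be inflated where other introns of the gene were not listed. All of the 8 but EGFR lost the call without α-amanitin 2 replicate 2, with adjusted p between 0.105 and 0.139.

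The 5 lower introns were in SEC14L1 (12 and 24 reads against 120 and 95), CYTH1 (0 and 0 against 12 and 16), TFDP1 (0 and 0 against 35 and 38), RPL41 (5 and 15 against 26 and 32) and RPL6 (0 and 3 against 17 and 16). As shares of their genes they were at most 2.79% under DRB 25 and between 0.201% and 10.0% under α-amanitin 2. In SEC14L1 the bases at the donor and at the acceptor, shown above, contain the same repeated letters, so the junction can be placed in more than 1 way. Each of the 5 lost its call when any one of the 4 libraries was left out, with adjusted p between 0.062 and 0.153, and the difference in SEC14L1 turned positive with the splice-site denominator (0.11 as a fraction).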

How the data were processed

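Poly(A)+ RNA of A549 cells was sequenced in 10 libraries, 2 per group. The authors mapped the reads with STAR (2.7.3a in the submitters' notes) to GRCh37 and deposited, per library, counts of split reads and of unspliced reads at each intron and of inclusion, skipping and retention reads at each exon, obtained with the IPSA pipeline. The pipeline filtered introns by how evenly their split reads were spread over positions (entropy), by annotation and by the bases at their ends, so read number was not the sole criterion. Gene sums, counts per library and Psi were computed from these values with Python 3.11.15, pandas 2.3.3 and R 4.3.3. Annotation was taken from GENCODE release 44 mapped to GRCh37; the study used an older release, so an intron of that release alone counts as unannotated here.

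Genes were tested with limma 3.58.1 (voom, TMM factors computed in the same script) over all 10 libraries, with 10 reads or more in at least 2 of the 4 libraries and at least 15 over them, at an adjusted p under 0.05. Exons (Psi denominator) and introns, with a denominator of at least 10 in each of the 4 libraries, were tested by a quasi-binomial F test (dispersion floor 1, moderated with limma), and shares per library by a two-sided exact permutation test. Exons also needed at least 10 inclusion and 10 skipping reads over the 4 libraries. Introns needed at least 10 unspliced and 10 split reads over them for the unspliced share, and at least 10 split reads for the share of the gene. Calls were adjusted by the Benjamini-Hochberg method over all features, and the scripts were tested on simulated data. The 4 libraries, the gene lists and the tests were chosen with earlier results of these data known. Named genes were CDK9, POLR2A and HEXIM1, the 12 largest called changes per direction with a mean of at least 50 split reads and no overlap between the drugs, and the 2 largest called members of each list; named exons and introns were the 8 largest called changes per direction without overlap, 1 per gene, and, by rules added after the data were seen, the same among exons with both kinds of read and the 12 largest in either direction in splicing factor genes. Others are marked as chosen after their values were seen. Replicate libraries differed beyond counting noise (chi-squared per degree of freedom 17.3 for DRB 25 and 12.9 for α-amanitin 2). Intervals of counts were not used. DESeq2 and edgeR were not used, since the deposited counts are held in a text field of mixed kinds. Results for some named items are not reported here.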

Additional observations from a re-analysis of the deposited data

How the results depend on the processing

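The deposited lists limit every result: introns with few reads or dropped by other filters are missing, and DRB 25 lists were shorter. Genes called numbered 6291. They were 2780 (1405 higher, 1375 lower) over introns listed in all 4 libraries and 4196 (3279 and 917) with unlisted introns of DRB 25 at 10 reads, an alternative added after seeing the data, as was the same for α-amanitin 2 (1717 and 4758). Total split reads in place of TMM gave 1282 and 5508. Leaving out single libraries gave 2828 to 5726 genes. With DRB 25 filled in, the log2 difference turned positive in USP24 (0.1574), KNTC1 (0.3488), LARP7 (0.3105), CDK12 (0.5645), INTS8 (0.8558), POLR3E (1.142), CLK4 (1.499), SRPK2 (0.9723), FAS (0.7463), BOK (0.8538), RPL39L (0.1559), NDUFV3 (0.6079), AKR1C1 (0.123) and MVK (0.6258), which follows from the fill itself.

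Exons called were 4721, and 3092 with at least 30 reads per library, 2561 with 1 exon per set sharing a splice site, 869 with both kinds of read in all 4 libraries, and 1465 to 3582 without single libraries. Introns with a changed unspliced share were 718, and 324 with at least 30 reads, 474 with the 4 libraries only, 115 of 16223 exons by retention against inclusion reads, and 129 to 749 without single libraries. Introns absent from the annotation were 328, and 58 with the 4 libraries only, 162 with at least 1 unannotated site, 1271 with the splice-site denominator, 1631 with limma on log odds, and 8 to 51 without single libraries. In SEC14L1 the splice-site denominator gave 0.1079. The difference in unspliced share was 0.477 points over common introns, 1.203 with at least 10 split reads, and 21.99 with chromosome M and unannotated introns, a setting added after seeing the data. That in unannotated share was 0.262 and 0.834. The cause of these shifts was not tested.

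Replicate numbers were not taken to pair the compared libraries: deviations of DRB 25 and α-amanitin 2 correlated at -0.009 over genes, with 2 pairs, and those of other pairs of groups at 0.004 to 0.263. With the replicate block there were 6325 genes, 863 of 5954 exons, 497 of 4870 introns for unspliced reads and 18 of 839 introns absent from the annotation. Of the named genes under the alternatives, 803 results kept direction and call, 87 lost the call and 14 turned. The figures were 111, 2 and none for exons, 102, 21 and none for unspliced introns and 48, 50 and 1 for introns absent from the annotation.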
